A study of Mus musculus with 8 samples.

Results

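The genes described are 36 genes that mark macrophages, neutrophils and dendritic cells, out of 21597 gene symbols on the array. They were listed by name as markers of these cells, by people who knew earlier results of these data, and fall into 19 macrophage genes, 5 Fc receptor genes (with the adaptors Fcer1g and Tyrobp), 4 C-type lectin genes, 7 neutrophil genes and 1 dendritic cell gene, Itgax. All 36 were found on the array under their listed names, with 56 probes. Of these genes, 19 have 1 probe, 14 have 2 and 3 (Csf1r, Fcgr2b and Msr1) have 3.

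Gene expression was measured in the whole pancreas of 8 female NOD/LtJ (NOD) mice, a strain that develops autoimmune diabetes, at 12 weeks of age, with no treatment named. RNA of each NOD mouse was labeled with the red dye Cy5 and hybridized to its own two-color array, against 1 pool of RNA from 8 NOD.B10 mice of the same age labeled with the green dye Cy3. NOD.B10 (NOD.B10Sn-H2b/J) is a congenic strain that shares the NOD background, carries a different H2 (MHC) haplotype on chromosome 17, and does not become diabetic. The pool is 1 sample, so the spread given below is that between NOD mice only, and since the NOD mouse was always in red, an effect of the dye cannot be told apart from one of the strain. Values are log2 ratios of NOD mouse over pool, so that 1 is a 2-fold higher and -1 a 2-fold lower signal in the NOD mouse, and a mean ± SD is over n = 8 arrays. Replicates 1 to 4 were hybridized on slide 1 and replicates 5 to 8 on slide 2. The red signal was well above background, by the flag of the scanner software, at 21.6% of the spots in replicate 8 and up to 35.3% in replicate 2, and the green signal at 57.6% to 60.7%. The software did not rate the spot grid as good for 3 arrays, replicates 5, 6 and 7. As a check of the tissue, all 12 acinar cell genes listed stood well above background in red on 4 arrays or more.

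Macrophages reside in the islets and between the acini of the normal pancreas, and both macrophages and dendritic cells collect around the islets early in the insulitis of NOD mice, where they take up antigen and present it to T cells. Neutrophils are phagocytes of the blood that kill microbes with reactive oxygen and granule proteins. These cells sense IgG complexes with Fc receptors and microbial sugars with C-type lectins. Many but not all of these receptors signal through adaptors with a tyrosine motif (ITAM) such as Fcer1g and Tyrobp. Infiltrating cells make up a small part of the organ, and in whole tissue a change in the number of cells and a change in RNA per cell cannot be told apart.

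A sequence feature that the choice of members did not use was present in some of them. PU.1, the product of Spi1, is a transcription factor of the myeloid lineage that binds purine-rich sites around the core GAGGAA. RefSeq promoter windows (assembly GRCm38.p6, 250 bases before to 50 after the gene start, 300 bases in all) could be matched by symbol for 27 of the 36 members. GAGGAA, searched on both strands, was present in 18 of these windows (66.67%), against 28.31% of 27025 promoters of the same length. Within the 100 bases just upstream of the start it was present in 12 members (44.44%), against 9.76% of all promoters. For C1qc, Laptm5, Tlr2 and S100a8, part of these bases was found in a GENCODE transcript of the gene. Laptm5 and S100a8 are among the 12. A match of these letters is not a measured binding site, and its absence says only that the letters are not in the window. The 100 bases upstream of the start are given, 5′ to 3′ on the strand of the gene, for 6 members that hold the motif, 1 or more from each group but dendritic cells, and for 3 members with adjusted p under 0.05 that do not. The bases just after the RefSeq start were found whole in a GENCODE transcript of the gene for 21 of the 27 members. They were not for 6, among them C1qb and Mpeg1 below, where the start rests on RefSeq alone. Capitals mark GAGGAA or its reverse complement TTCCTC.
C1qb, chr4:136886201-136886300, minus strand: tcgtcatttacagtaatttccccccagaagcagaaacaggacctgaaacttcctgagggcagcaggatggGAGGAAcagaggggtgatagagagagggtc
Trem2, chr17:48346301-48346400, plus strand: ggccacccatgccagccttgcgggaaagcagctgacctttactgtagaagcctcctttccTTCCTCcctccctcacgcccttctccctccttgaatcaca
Fcgr1, chr3:96293970-96294069, minus strand: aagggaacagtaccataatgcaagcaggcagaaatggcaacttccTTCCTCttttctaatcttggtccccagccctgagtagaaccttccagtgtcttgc
Fcgr3, chr1:171059404-171059503, minus strand: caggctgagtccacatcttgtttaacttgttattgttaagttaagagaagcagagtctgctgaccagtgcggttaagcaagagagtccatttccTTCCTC
Clec7a, chr6:129472780-129472879, minus strand: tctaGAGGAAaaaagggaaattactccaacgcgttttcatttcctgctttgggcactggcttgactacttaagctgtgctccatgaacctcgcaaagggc
Lcn2, chr2:32387740-32387839, minus strand: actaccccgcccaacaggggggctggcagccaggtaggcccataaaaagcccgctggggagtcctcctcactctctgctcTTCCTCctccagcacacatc
Mpeg1, without the motif, chr19:12460670-12460769, plus strand: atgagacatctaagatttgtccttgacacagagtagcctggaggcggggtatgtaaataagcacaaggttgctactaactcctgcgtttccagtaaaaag
Fcer1g, without the motif, chr1:171234350-171234449, minus strand: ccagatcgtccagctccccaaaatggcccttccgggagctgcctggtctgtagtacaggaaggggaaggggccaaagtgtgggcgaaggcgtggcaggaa
Itgax, without the motif, chr7:128129450-128129549, plus strand: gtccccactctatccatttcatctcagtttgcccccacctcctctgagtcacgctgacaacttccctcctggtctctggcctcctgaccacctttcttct

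Of the 6 matched members whose brightest probe passed an adjusted p of 0.05, C1qb holds the motif in its window and Mpeg1, Tlr2, Fcgr2b, Fcer1g and Itgax do not. In these sequences the motif lay next to the gene start in Fcgr3 and at the far end of the stretch in Clec7a, so its distance from the start differed between members. Spi1 itself (listed on the array as Sfpi1) had a log2 ratio of -0.58 ± 0.30, adjusted p = 0.00856 by limma, with a red signal at a stand-in value, used where a signal does not rise above background, in 6 of 8 arrays.

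Most members were changed little or varied between mice by more than their mean. A probe was tested if its red signal reached 25 in at least 4 arrays. By that filter 53 of the 56 probes were tested, and the 3 left out were the only probe of Clec4e and the weaker probes of Tlr4 and Ncf1. With limma over all 28105 probes tested, no member probe passed 2-fold and an adjusted p under 0.01 in either direction (0 higher and 0 lower), while 0.310% of all probes were called higher and 1.41% lower by this rule. At an unadjusted p under 0.05, 9 member probes were higher and 7 lower, and 3 of these changed at least 2-fold, while 8.65% of all probes were higher, 25.1% lower and 3.70% changed at least 2-fold in either direction at this p. At an adjusted p under 0.05 with any fold change, 5 of 53 member probes rose (9.43%, against 5.50% of all probes) and 5 fell (9.43%, against 13.8% of all probes). The 5 that rose were the brightest probes of C1qb, Mpeg1, Fcgr2b, Fcer1g and Itgax. The 5 that fell were the brightest probes of Tlr2 and Tlr4 and the weaker probes of Csf1r, Trem2 and Itgax, each with a red signal well above background in at most 1 array. Of the 53 probes, 2 (C1qb and Fcer1g, 3.77%) were above 0 in all 8 mice, against 3.92% of all probes, and 3 (Tlr2, Tlr4 and the weaker Trem2 probe, 5.66%) were below 0 in all 8 mice, against 9.40% of all probes. These shares lie near or on either side of the background.

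Taken 1 probe a gene, the brightest, 25 of 35 tested members had a mean above 0 (71.4%), against 36.5% of 18396 genes. The median of the members was 0.18 and that of all genes -0.08. Among genes well above background in red on 4 arrays or more, 17 of 22 members had a mean above 0 (77.3%, median 0.14), against 42.5% of 9544 genes (median -0.06). Of the 9 members with red signals well above background on all arrays, 8 had a mean above 0, with a median of 0.34. This limit acts on the NOD signal, the numerator of the ratio, so it favors means above 0. The share over all genes that pass it was not taken. The SD of single members over the 8 mice had a median of 0.31 over these 9, and of 0.89 over those with such signals on under 4.

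**Figure D1:**
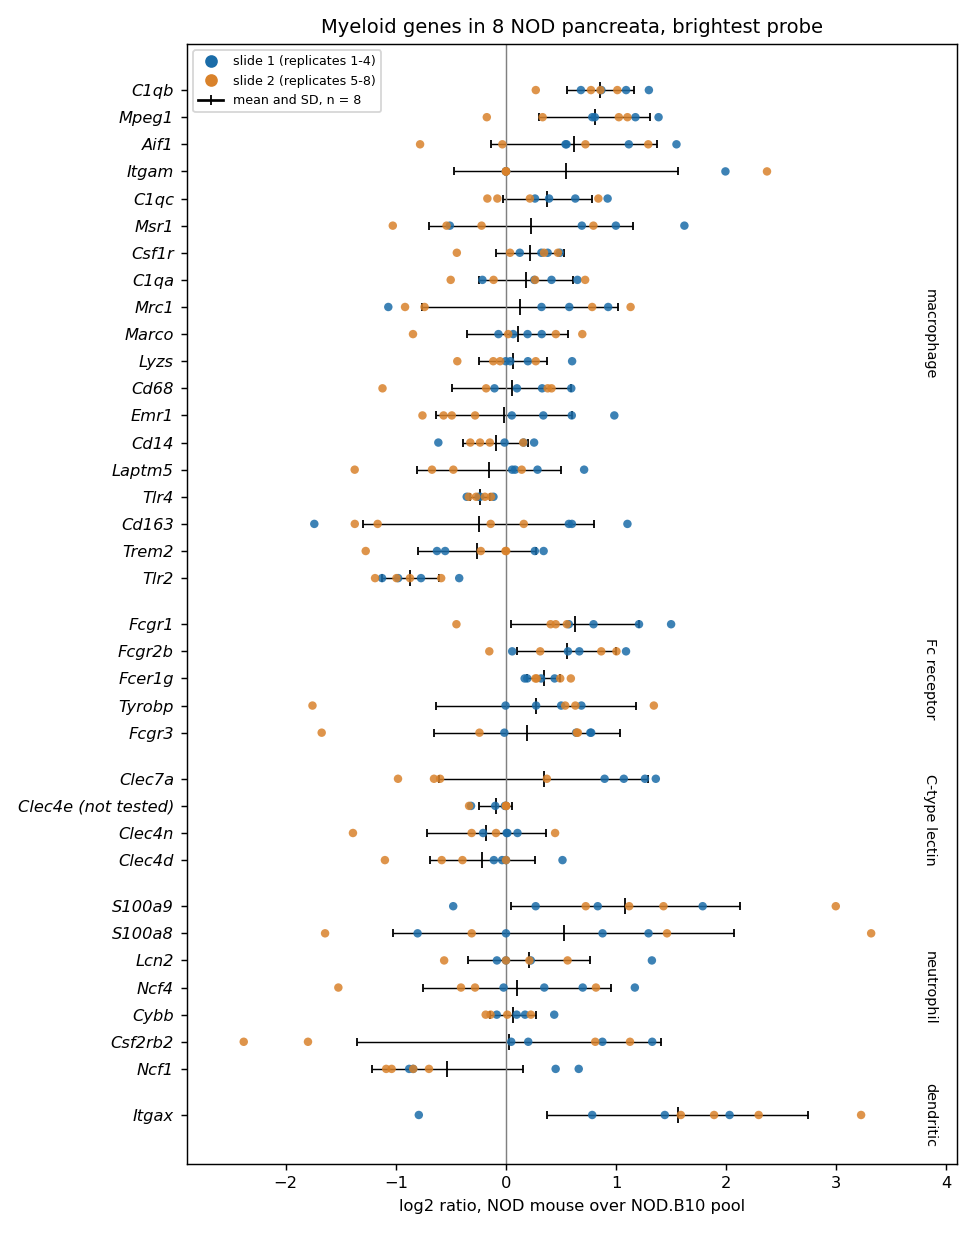
Log2 ratio of each NOD mouse over the NOD.B10 pool (horizontal axis) for the brightest probe of each of the 36 genes, grouped by role; points are the 8 arrays, colored by slide, and the black bar is the mean and SD. C1qb and Fcer1g lie above 0 in all 8 mice, Tlr2 and Tlr4 lie below 0 in all 8, and most other genes cross 0.

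C1q, the first component of the classical complement pathway, is made largely by macrophages and is built of the chains A, B and C. C1qb (probe at chr4:136152739-136152798) was the member macrophage gene with the highest mean by brightest probe. Probe positions here and below are on mm8, the build of the array annotation, which gives a gene but no exon or UTR for them. Its red signal ranged from 482 to 2527 (median 1797 intensity units) and that of the pool from 378 to 1240 (median 1002). The log2 ratio was lowest in replicate 8 (0.27), with a median of 0.86 and a highest value of 1.30 in replicate 1. No mouse was at or below the pool, and slide 1 (mean 0.98) and slide 2 (0.73) overlapped. The mean was 0.86 ± 0.31, or 1.81-fold higher, with an adjusted p of 0.00237 by limma and p = 0.00781 by the exact two-sided sign-flip test, the smallest p this test can give. The adjusted p stayed between 0.00159 and 0.00844 when each mouse was left out in turn.

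C1qc was at 0.38 ± 0.40, from -0.17 in replicate 8 to 0.92 in replicate 2, and was above 0 in 6 of 8 mice (adjusted p = 0.0914, limma). C1qa was at 0.18 ± 0.43, from -0.50 to 0.72, and was above 0 in 5 of 8 mice (adjusted p = 0.422). The 3 genes lie side by side on chromosome 4 and all had red signals well above background on 8 arrays.

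Mpeg1 (chr19:12531942-12532001) encodes perforin-2, a pore-forming protein of macrophages that acts on engulfed bacteria. Its red signal ranged from 516 to 2377 (median 1425) against 556 to 949 (median 756) in the pool. The log2 ratio was lowest in replicate 5 (-0.17), with a median of 0.92 and a highest value of 1.39 in replicate 4. Mpeg1 was higher in 7 of 8 mice and was below the pool in replicate 5 alone. The mean was 0.80 ± 0.51 (1.75-fold higher, adjusted p = 0.0168, limma, exact sign-flip p = 0.0156). The weaker Mpeg1 probe was at a stand-in value in red on 7 arrays and gave 0.11 ± 0.55.

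Aif1 encodes IBA1, an actin-binding protein of macrophages. Its values went from -0.78 in replicate 8 to 1.55 in replicate 2, with a median of 0.64, and were above 0 in 6 of 8 mice. The mean was 0.62 ± 0.75 (adjusted p = 0.13, limma) and passed without replicate 8 (0.82, adjusted p = 0.0313). It fell to 0.0067 with median-centered signals (adjusted p = 0.988) and to 0.067 with normexp and loess (0.658). The second probe gave 0.87 ± 1.33 (adjusted p = 0.217). Aif1 (chr17:34779070-34779129) lies inside the H2 region that differs between the strains, so a sequence difference under a probe and a difference in RNA cannot be told apart there.

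Other general macrophage markers lay near 0. Lyzs (now Lyz2), lysozyme M, was the brightest member, with a red signal of 12285 to 32778. Its log2 ratio was 0.06 ± 0.31, from -0.44 to 0.60, above 0 in 4 of 8 mice, and its probe can share signal with the near-identical Lyz1. Cd68, a lysosomal protein, was at 0.05 ± 0.54, Cd14, the co-receptor for bacterial lipopolysaccharide, at -0.10 ± 0.29, and Csf1r, the receptor for the macrophage growth factor CSF1, at 0.22 ± 0.31 by its brightest probe. Csf1r was above 0 in 7 of 8 mice (adjusted p = 0.197, limma), and passed without replicate 8 (0.31, adjusted p = 0.0201). Its mean was 0.051 with median-centered signals (adjusted p = 0.843) and 0.076 with normexp and loess (0.27). Its weaker probes were at -0.67 ± 0.79 and -0.52 ± 0.34 (adjusted p = 0.118 and 0.0195), neither well above background in red on any array.

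Emr1 (Adgre1), the classical surface marker of mouse macrophages, split by slide with its brightest probe. The values were 0.05, 0.98, 0.34 and 0.60 on slide 1 and -0.76, -0.28, -0.57 and -0.49 on slide 2, with no overlap. The mean over all arrays was -0.02 ± 0.62 (adjusted p = 1, limma). The red signal was 475 to 1074 on slide 1 and 253 to 551 on slide 2, while the pool gave 428 to 669 over all arrays. The second Emr1 probe, well above background in red on no array, gave 0.30, -0.94, -0.73 and -0.43 on slide 1 and -0.43, -0.73, 0 and 0.55 on slide 2, which overlap. The difference between slides was not tested, and slide and mice cannot be told apart. Both Emr1 probes lie on chromosome 17, the chromosome of the H2 region. Itgam, the CD11b integrin chain, was measured too weakly to read: both of its probes lay at a log2 ratio of 0 on 6 and 7 arrays, and the brightest probe gave 1.99 in replicate 1 and 2.37 in replicate 7 (mean 0.55 ± 1.01, adjusted p = 0.312). The mean of that probe was 1.68 by the ratio of processed signals (adjusted p = 0.00438), 2.08 with median-centered signals (6.06e-06) and -0.0091 with normexp and loess (0.879).

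Scavenger receptors take up modified lipoproteins, hemoglobin complexes and microbes. Marco was at 0.10 ± 0.46, the mannose receptor Mrc1 at 0.13 ± 0.89, Msr1 at 0.23 ± 0.92 by its brightest probe and Cd163, the receptor for hemoglobin bound to haptoglobin, at -0.25 ± 1.05. Mrc1 and Cd163 each ranged over more than 2 log2 units between mice, from -1.07 to 1.13 and from -1.74 to 1.10, and neither had more than 3 arrays with red well above background. Laptm5, a lysosomal membrane protein of leukocytes, was at -0.16 ± 0.65. Trem2, a lipid-sensing receptor that pairs with Tyrobp, was at -0.26 ± 0.54 by its brightest probe. Its weaker probe was below 0 in all 8 mice at -1.16 ± 0.72 (adjusted p = 0.0157, limma). The red signal of that probe, 13.6 to 46.6, was well above background on no array and at a stand-in value in 4, so no exact fold can be read. Trem2 (chr17:47817764-47817823) lies on the chromosome of the H2 region as well.

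Tlr2, a receptor for bacterial lipoproteins, had the lowest mean of all members by their brightest probes. Its probe (chr3:83922349-83922408) is spotted 10 times on each array and the values are means over those spots. The red signal ranged from 121 to 231 (median 150) and that of the pool from 209 to 322 (median 264). The log2 ratio went from -1.19 in replicate 5 to -0.42 in replicate 2, with a median of -0.93, so that all 8 mice were below the pool, and slide 1 (mean -0.83) and slide 2 (-0.91) overlapped. The mean was -0.87 ± 0.26 (1.83-fold lower, adjusted p = 0.00132, limma, exact sign-flip p = 0.00781). The red signal was well above background by the majority of spots on 1 array and at a stand-in value on 3, while the pool was well above background on 8, and with normexp and loess the mean was -0.18 (adjusted p = 0.015). Tlr4, the receptor for lipopolysaccharide, is also spotted 10 times. It was at -0.24 ± 0.09 and below 0 in all 8 mice (adjusted p = 0.00379, limma), but its red signal of 27.5 to 53.1 was at a stand-in value on 7 arrays. The ratio of the processed signals gave a mean of -0.00752 (adjusted p = 0.964). Median-centered signals, by which 29.8% of all probes were higher at an adjusted p under 0.05, turned it to 0.84 (adjusted p = 0.00367).

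Fc receptors bind the constant part of antibodies. All 5 genes of this group had a mean above 0 by their brightest probes (median 0.34), against 36.5% of all tested genes. Every other probe of these genes had a mean below 0: Fcgr1 -0.18, Fcgr2b -0.14 and -0.36, Fcgr3 -0.27 and Fcer1g -0.04. Fcer1g (chr1:173066338-173066397), the ITAM-bearing gamma chain of the activating receptors, was the most even of all members that were well above background on 8 arrays. Its red signal ranged from 885 to 2995 (median 2071) and that of the pool from 730 to 2129 (median 1663). The log2 ratio was lowest in replicate 1 (0.17), with a median of 0.30 and a highest value of 0.59 in replicate 7, and was above 0 in all 8 mice. The mean was 0.34 ± 0.15, a 1.27-fold higher level (adjusted p = 0.00507, limma, exact sign-flip p = 0.00781), but it did not pass with median-centered signals (0.35, adjusted p = 0.137) or with normexp and loess (0.23, adjusted p = 0.168). A second Fcer1g probe, which overlaps the first by a few bases and is much weaker (median red signal 176), gave -0.04 ± 0.93 with values of -1.07 in replicate 5 and -1.85 in replicate 8.

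Fcgr2b (chr1:172797671-172797730), the inhibitory Fc receptor of B cells and myeloid cells, was at 0.55 ± 0.45 (1.46-fold higher, adjusted p = 0.0405, limma, exact sign-flip p = 0.0234). Its values went from -0.15 in replicate 7 to 1.09 in replicate 2, with a median of 0.61, and were above 0 in 7 of 8 mice. The red signal of this probe was well above background on 2 arrays, and that of the second probe on 4. The call was lost under several alternatives: leaving out replicate 2, 3, 4, 5, 6 or 8 gave adjusted p of 0.0577 to 0.0902, the plain statistic gave 0.0559, no signal filter 0.0517, and normexp with loess a mean of 0.00492 (adjusted p = 0.967). Median-centered signals turned the mean to -0.13 (adjusted p = 0.714). The other 2 probes of Fcgr2b gave -0.14 ± 0.78 (adjusted p = 0.758), a mean over 10 spots per array, and -0.36 ± 0.79 (adjusted p = 0.395), so the increase was seen with 1 of 3 probes.

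Fcgr1, the high-affinity IgG receptor, was at 0.63 ± 0.58, from -0.45 in replicate 5 to 1.499 in replicate 2 with a median of 0.56, and was above 0 in 7 of 8 mice (adjusted p = 0.0607, limma). With slide as a covariate the adjusted p was 0.0242, with array weights 0.039, with the ratio of processed signals 0.0286, and without replicate 5 it was 0.0171, while leaving out any other mouse gave up to 0.132. Fcgr3, an activating low-affinity receptor, was at 0.19 ± 0.84 with a median of 0.64, since replicate 8 was at -1.67. Tyrobp (DAP12), the adaptor of many myeloid receptors, was at 0.28 ± 0.91 with a median of 0.52, and replicate 5 was at -1.76. Fcgr3 and Tyrobp were each above 0 in 5 and 6 of 8 mice (adjusted p = 0.67 and 0.554), and single mice moved both means: Tyrobp was at 0.57 without replicate 5 and at 0.12 without replicate 8, its highest value, and Fcgr3 at 0.46 without replicate 8.

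**Figure D2:**
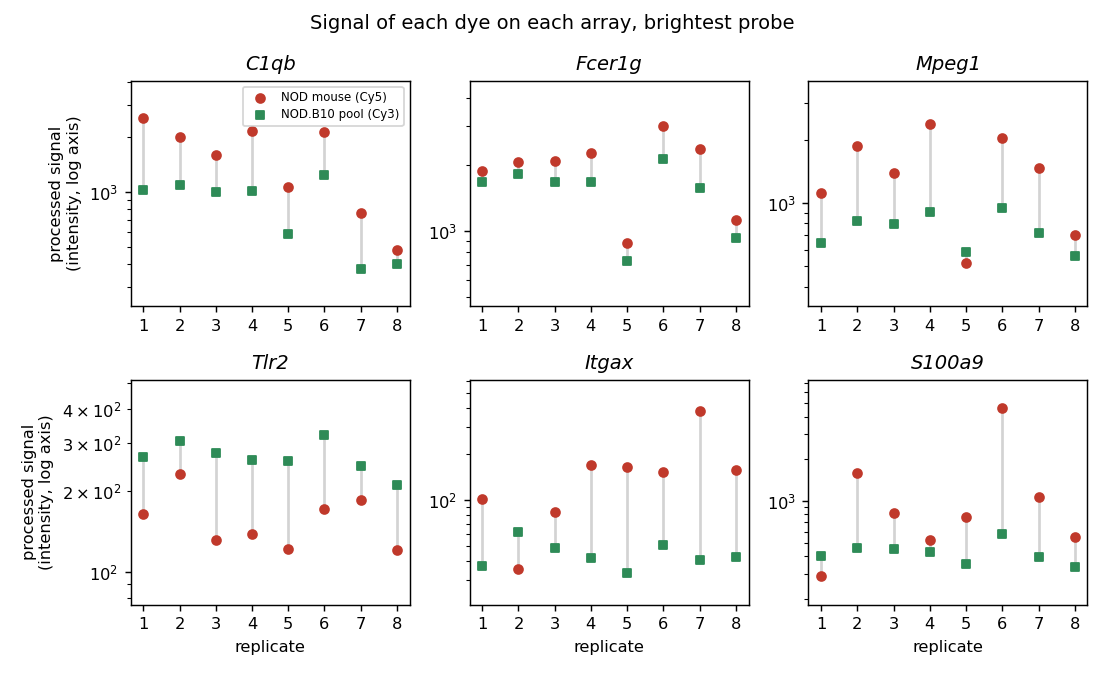
Processed signal of the NOD mouse (red circles) and of the NOD.B10 pool (green squares) on each of the 8 arrays, on a log axis in intensity units, for the brightest probes of 6 genes. The red circle lies above the green square on all arrays for C1qb and Fcer1g, on 7 of 8 for Mpeg1, Itgax and S100a9, and below it on all arrays for Tlr2.

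C-type lectins of myeloid cells recognize fungal and mycobacterial sugars, and none of the 4 genes in this group passed the test. Clec4d, which pairs with Clec4e (Mincle) to sense mycobacterial glycolipids, was at -0.21 ± 0.48, from -1.10 in replicate 6 to 0.51 in replicate 1 (adjusted p = 0.404, limma). Its red signal of 20.7 to 55.0 was well above background on no array. Clec4e was at -0.10 ± 0.15 with a red signal of at most 23.4 and was not tested. No value of Clec4d was called by the deposited log ratios, while median-centered signals, by which 21.3% of all probes were called higher, gave 1.17 (adjusted p = 0.00514). Clec4n (dectin-2) was at -0.18 ± 0.54 (adjusted p = 0.518).

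Clec7a (dectin-1), the receptor for fungal beta-glucan, split by slide. Its values were 0.90, 1.26, 1.07 and 1.36 on slide 1 and -0.98, -0.60, 0.37 and -0.65 on slide 2. The groups did not overlap, and the mean over all mice was 0.34 ± 0.95 (adjusted p = 0.499, limma). Slide 1 had red signals of 202 to 303 and slide 2 of 74.5 to 175, while the pool, the same sample on both, gave 105.7 to 121.5 on slide 1 and 122.1 to 149.6 on slide 2, with no overlap either. The part of this in the split was not tested, nor was the difference itself.

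S100a9 and S100a8 form calprotectin, the main cytosolic protein of neutrophils, and S100a8 had the widest range of the members. The S100a9 signal in red ranged from 289 in replicate 1 to 4588 in replicate 6 (median 790), against 335 to 575 in the pool. The log2 ratio went from -0.48 in replicate 1 to 3.00 in replicate 6, with a median of 0.98, and was above 0 in 7 of 8 mice. The mean was 1.08 ± 1.04 (2.12-fold higher), which did not pass the test (adjusted p = 0.0666, limma, exact sign-flip p = 0.0234). It passed without replicate 1 (1.31, adjusted p = 0.0412) and with red required well above background in 4 arrays (0.0262). It also passed with median-centered signals (0.0385) and with the ratio of processed signals (0.0251). It did not pass with normexp and loess (0.41, adjusted p = 0.124) or without any 1 of replicates 2 to 8 (0.0831 to 0.143). S100a8 was weaker, with a median red signal of 51.9, and went from -1.64 in replicate 8 to 3.32 in replicate 6 (mean 0.52 ± 1.55, adjusted p = 0.509), and its mean was 0.13 without replicate 6. Both genes were highest in the same mouse, replicate 6.

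The other neutrophil genes had means between -0.53 and 0.21. Cybb, the membrane subunit of the phagocyte NADPH oxidase, had the lowest SD of the group, at 0.07 ± 0.21 with a range of -0.18 to 0.44 and red signals well above background on 8 arrays. Ncf4, a cytosolic subunit of the oxidase, was at 0.10 ± 0.86 and Ncf1, another, at -0.53 ± 0.69 (adjusted p = 0.149, limma) with a red signal of 24.4 to 75.2. Lcn2, the iron-siderophore binding lipocalin of neutrophil granules, was at 0.21 ± 0.55 with a red signal of at most 51.6. Csf2rb2, the second beta chain of the IL-3 receptor, was at 0.03 ± 1.38, from -2.38 in replicate 5 to 1.33 in replicate 4. By the deposited log ratios no gene of this group passed an adjusted p of 0.05 in either direction. Of 7 means, 6 were above 0 (median 0.10), against 36.5% of all tested genes. Median-centered signals made 29.8% of all probes higher at an adjusted p under 0.05 by limma. Among them were S100a9, S100a8 (1.80, adjusted p = 0.000326), Lcn2 (1.81, 4.03e-06), Csf2rb2 (0.89, 0.00706) and Ncf1 (0.57, 0.0443), but not Ncf4 or Cybb.

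Itgax, the CD11c integrin chain of dendritic cells and some macrophages, had the highest mean of the members. The red signal of the brightest probe ranged from 35.8 in replicate 2 to 381 in replicate 7 (median 155), against 33.3 to 62.0 in the pool (median 42.1). The log2 ratio went from -0.79 in replicate 2 to 3.22 in replicate 7, with a median of 1.74, and 7 of 8 mice were above the pool. The mean was 1.56 ± 1.18 (2.94-fold higher, adjusted p = 0.0319, limma, exact sign-flip p = 0.0234). Slide 1 had a mean of 0.87 and slide 2 of 2.25, with overlap. Without replicate 2 the mean was 1.89 and the adjusted p 0.00919, past the threshold of the stricter rule, but leaving out any of the other 7 mice gave adjusted p of 0.0529 to 0.0763, and array weights 0.0585. With normexp and loess the mean was 0.06 (adjusted p = 0.321). The red signal was well above background on 1 of 8 arrays, and the second Itgax probe, which lies elsewhere in the gene (chr7:127924986-127925045 against chr7:127941686-127941745 for the brightest), was below 0 in 7 of 8 mice and at 0 in the other one, at -0.78 ± 0.52 (adjusted p = 0.02). Both Itgax probes thus passed the test, in opposite directions.

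Pairs of members whose proteins work together were compared across the 8 mice, with exact permutation p-values adjusted over 6 pairs, none of which passed. S100a8 and S100a9 had the highest correlation, with r = 0.741 (exact p = 0.0376, adjusted p = 0.226) and rho = 0.690 (exact p = 0.0694, adjusted p = 0.416). Without replicates 6 and 8, the mice farthest from the median of S100a8, r was 0.550 (exact p = 0.265), and on values centered within each slide it was 0.788, so the relation rests in part on those 2 mice. C1qb and C1qc gave r = 0.486 and rho = 0.524 (exact p = 0.223 and 0.197, adjusted p = 0.482 and 0.508), 0.453 without replicates 1 and 8 and 0.351 within slides. C1qa and C1qb gave r = -0.107 and rho = -0.310 (exact p = 0.808 and 0.462, adjusted p = 0.808 and 0.508), and r turned to 0.361 without replicates 1 and 5. Fcer1g and Tyrobp, the ITAM adaptors, gave r = 0.236 and rho = 0.357 (exact p = 0.62 and 0.389, adjusted p = 0.744 and 0.508), 0.129 without replicates 6 and 7 and 0.318 within slides. Clec4d and Clec4e, which form a dimer, gave r = 0.440 and rho = 0.274 (exact p = 0.283 and 0.508, adjusted p = 0.482 and 0.508), with r = 0.678 within slides but -0.442 without replicates 1 and 6, and Clec4e failed the signal filter with red at a stand-in value on 8 arrays. Itgam and Itgax, whose products pair with the same beta chain, gave r = 0.443 and rho = 0.327 (exact p = 0.321 and 0.429, adjusted p = 0.482 and 0.508), and Itgam lay at 0 on 6 arrays.

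Probes of 1 gene often gave different answers. Of the 17 members with more than 1 probe, 11 had means on both sides of 0. Of 20 probes that were not the brightest of their gene, 3 stood well above background in red on 4 arrays or more, as did 22 of the 35 tested brightest probes (62.9%, and 51.9% of the brightest probes of all tested genes). Whether probes of genes that disagree are weaker was not tested. Where 2 probes of a gene both met this limit, in Aif1 and Fcer1g, the means were 0.62 and 0.87 for Aif1 and 0.34 and -0.04 for Fcer1g.

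**Figure D3:**
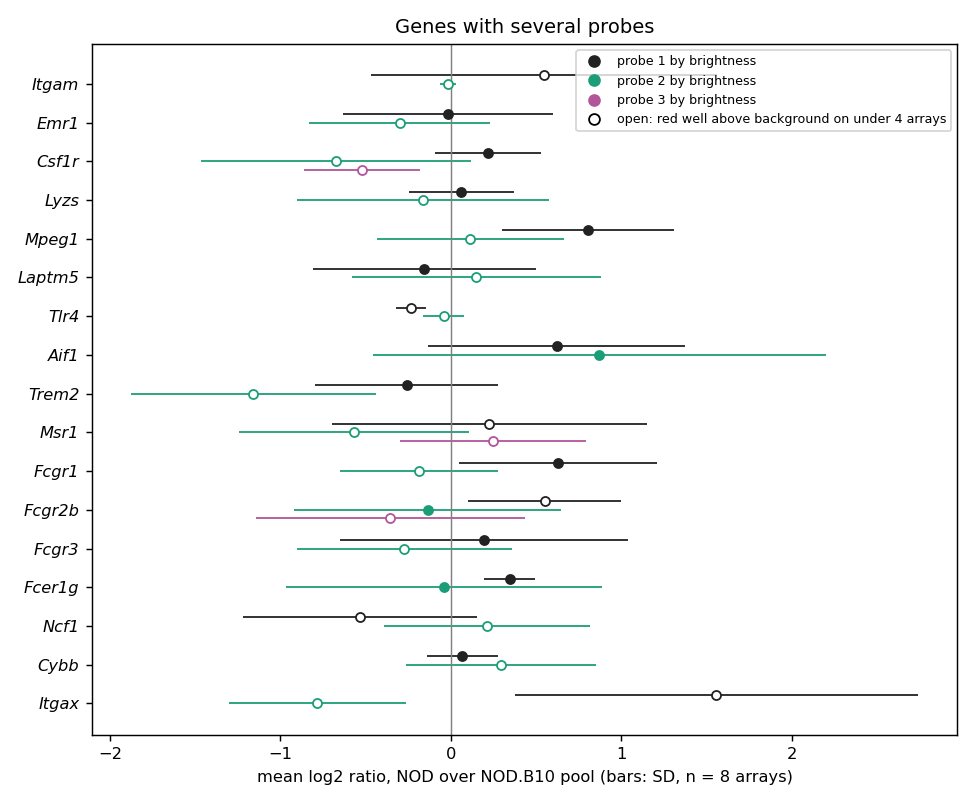
Mean log2 ratio over 8 arrays (horizontal axis, bars are SD) of each probe of the 17 genes with more than 1 probe, ranked by brightness and colored by rank; open circles had a red signal well above background on under 4 arrays. Most probes of rank 2 and 3 are open, and Itgax, Csf1r, Fcgr1 and Fcgr2b show probes on both sides of 0.

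High and low values fell in the same mice for many members. The highest of the 8 values fell in replicate 2 for 13 of 35 genes (37.1%), against 10.5% of all tested genes. The lowest fell in replicate 5 for 12 (34.3%, against 9.51%) and in replicate 8 for 9 (25.7%, against 15.6%). Equal values, such as log2 ratios of 0, were counted for the first array that held them. The shares of later arrays, in members and in all genes, can thus be too low. The median over the members was 0.59 in replicate 2, -0.24 in replicate 5 and -0.22 in replicate 8. It was 0.05 to 0.38 in the other 5 mice. Replicate 2 is also the array with the most spots well above background in red and replicate 8 the one with the fewest, and the grid of replicate 5 was not rated good. Of genes for other cells, the median of 4 red cell genes was highest in replicate 5 (2.20) and replicate 6 (1.55). The median of 12 B cell genes was lowest in replicates 1, 5 and 8 (-0.40, -0.04 and 0), the same 3 mice as for the members, and was 0.99 in replicate 2, 0.98 in replicate 4 and 1.20 in replicate 7. The part of B cells, blood content or array quality in the values of the members was not tested. By slide, the median of the members was 0.34 on slide 1 and -0.02 on slide 2.

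Genes of the same cells from outside the set are read against 7.01% of all genes higher and 14.4% lower at an adjusted p under 0.05 by their brightest probes. Of 26 other macrophage and monocyte genes tested, 5 rose and 2 fell at an adjusted p under 0.05 by limma (median 0.04). Cd52, a surface glycoprotein of leukocytes, was at 1.44 ± 0.65 and above 0 in all 8 mice (adjusted p = 0.00485), past 2-fold and 0.01, and Coro1a, an actin regulator of leukocytes, at 1.29 ± 0.83. Ctss, the cathepsin that trims invariant chain in antigen-presenting cells, was at 1.00 ± 0.71, Pirb, an inhibitory receptor listed on the array as Lilrb3, at 0.75 ± 0.50, and Timd4, a receptor of resident macrophages for apoptotic cells, at 0.74 ± 0.15. Tlr7 fell with Spi1, at -0.45 ± 0.34 (adjusted p = 0.0329), with red at a stand-in value on 8 arrays. Cd52 and Coro1a are expressed by T and B cells as well.

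Of 20 other dendritic cell genes tested, 4 rose and 0 fell at an adjusted p under 0.05 by limma (median 0.06). These were Clec10a (Mgl1 on the array) at 0.79 ± 0.45, the activation marker Cd83 at 0.75 ± 0.62, the integrin chain Itgae at 0.67 ± 0.40 and the chemokine receptor Xcr1 of cross-presenting dendritic cells at 0.58 ± 0.20. Clec10a, Itgae and Xcr1 were above 0 in all 8 mice. Of 13 other C-type lectin genes, 2 rose, Clec4b1 at 0.71 ± 0.34 and Clec4a2 at 0.66 ± 0.44, and 0 fell (median -0.03). Clec4a2 and Clec4b1 belong to the same cluster of lectin genes on chromosome 6 as Clec4d, Clec4e and Clec4n.

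Of 21 other neutrophil genes tested, 2 rose and 2 fell (median -0.07). Rac2, the small GTPase of the oxidase, was at 0.78 ± 0.34 and Lrg1 at 0.36 ± 0.25, and both were above 0 in all 8 mice. Padi4, which citrullinates histones in neutrophils, was at -1.22 ± 0.92 and the leukotriene B4 receptor Ltb4r1 at -0.87 ± 0.63, both with red signals well above background on no array. Of 18 other Fc receptor and ITAM pathway genes, 0 rose and 0 fell by limma (median 0.06). Of 5 genes tested for the resident macrophages of the liver, a list that holds the member Marco and repeats Timd4 from above, no gene but Timd4 passed.

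Lists for other cell types are given beside these, since whole pancreas holds them too. T cell genes had a median of 0.59, with 4 of 13 tested rising, among them Cd3e at 0.61 ± 0.31 and Cd3d at 2.07 ± 1.14. B cell genes had a median of 0.51 with 0 of 12 passing in either direction. Liver genes had a median of -1.13, with 9 of 15 falling, Alb (Alb1 on the array) by 2.31 on the log2 scale and Apoa1 by 1.30. Islet genes had a median of -0.64 (3 of 9 fell), endothelial genes of -0.42 (4 of 7 fell), fibroblast genes of -0.24 (2 of 7 fell), adipocyte genes of -0.79 (1 of 8 fell) and mast cell genes of -0.22 (2 of 7 fell). Acinar genes had a median of 0.04 (2 of 12 rose), duct genes of -0.09 (1 of 8 fell), red cell genes of 0.36 (0 of 4 passed), eosinophil genes of 0.34 (1 of 3 rose), platelet genes of -0.00027 (1 of 5 rose) and lymph node stroma genes of -0.06 (1 of 7 rose and 1 fell). The part of these cells in the values of the members was not tested, and Fcgr2b, Fcer1g and Laptm5 are also expressed by lymphocytes or mast cells.

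**Figure D4:**
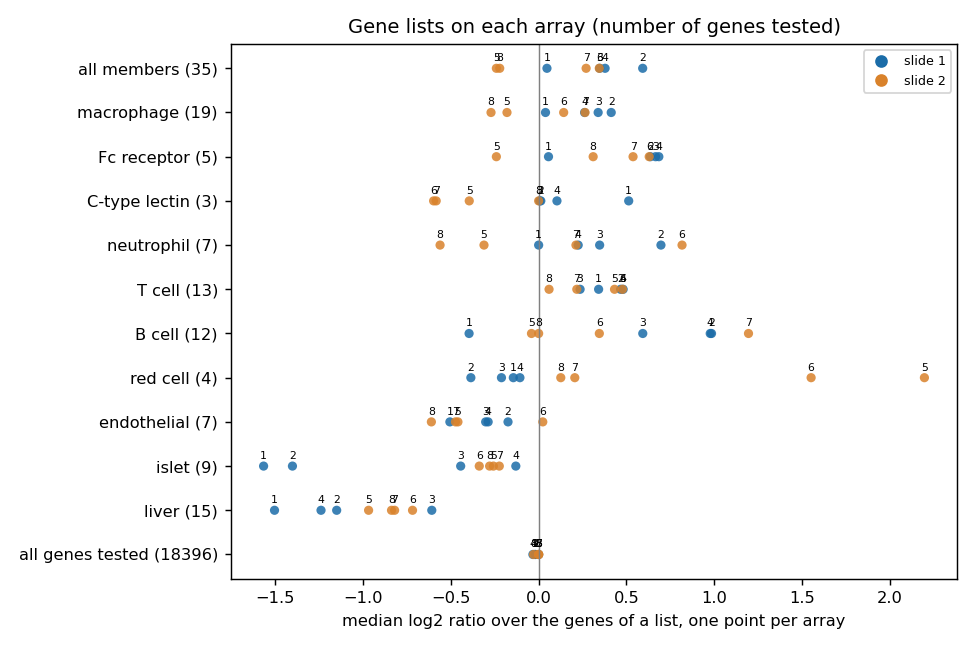
Median log2 ratio over the genes of a list on each array (horizontal axis), 1 numbered point per replicate colored by slide, with the number of genes tested in brackets. The members range from -0.24 to 0.59 between mice, liver genes lie below -0.6 in all 8, and all genes tested lie between -0.03 and 0.

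Many of these values depended on how the ratio is made. When background-subtracted signals, centered per array, replaced the deposited log ratios (median-centered signals), the median of all genes shifted by 0.10 to 0.02, that of the members became 0.35, and 22 of 35 members were above 0 beside 51.3% of all genes. By this route 11 member probes passed 2-fold and an adjusted p under 0.01 as higher, while 21.3% of all probes did, and 1 passed as lower, Tlr2 at -1.37, while 4.53% of all probes did. With normexp background correction and loess, the median of the members was 0.07 beside -0.01 for all genes, 0 member probes were called, and C1qb, Mpeg1 and Fcgr1 were higher and Tlr2 lower at an adjusted p under 0.05. By their brightest probes and over the settings and left-out mice tried on all slides, C1qb was between 0.60 and 1.07 and Mpeg1 between 0.53 and 0.94, with adjusted p of at most 0.00844 and 0.0438. Tlr2 stayed below 0 under all of these that test it, at -1.37 to -0.18, with adjusted p of at most 0.015; it was left out where red had to be well above background in 4 arrays. Fcer1g stayed above 0, at 0.23 to 0.37, with adjusted p of up to 0.168. Itgax stayed above 0, at 0.06 to 1.89, with adjusted p of up to 0.321. Fcgr2b went from -0.13 to 0.65.

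**Figure D5:**
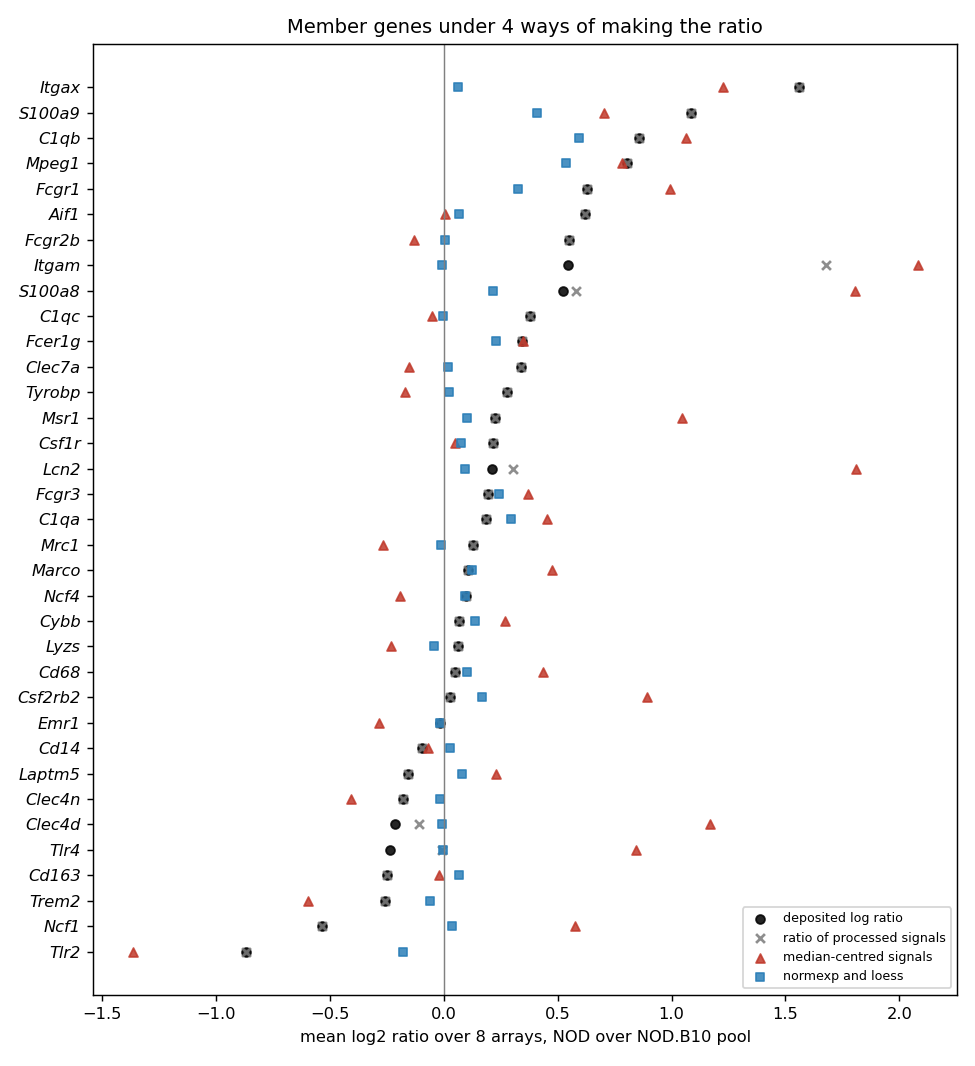
Mean log2 ratio over 8 arrays (horizontal axis) of the 35 tested members from the deposited log ratio (black circles), the ratio of processed signals (grey crosses), median-centered signals (red triangles) and normexp with loess (blue squares). C1qb, Mpeg1, Fcgr1, S100a9, Fcer1g and Itgax are among the genes above 0 by all 4 ways, and Tlr2 and Trem2 among those below. Itgam, S100a8, Lcn2 and Tlr2 are among the genes that move by over 1. Tlr2 was at -1.37 with median-centered signals and at -0.18 with normexp and loess.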

How the data were processed

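Each of the 8 arrays compared a NOD pancreas with the NOD.B10 pool. The deposited values were made by the authors with Agilent Feature Extraction (version 10.7.3.1 per the file headers): for each dye a processed intensity after background subtraction, detrending and dye normalization, and a log10 ratio of red over green. The deposited files also hold a score with the stand-in value the authors' software used where a signal did not rise above background. Probe positions are on mm8, as in the file headers, and were not converted. Deposited log10 ratios were converted to log2 and spots of a probe averaged. Of 34850 probes with a symbol, 28105 had a red intensity of at least 25 in at least 4 arrays and were tested with limma (3.58.1, R 4.3.3, package data.table, version 1.17.8) against 0, with Benjamini-Hochberg adjustment over all of them. On simulated data with 200 probes changed 3-fold, it recovered 133 with 0 false calls. Exact tests and figures used scipy 1.17.1, pandas 2.3.3, matplotlib 3.10.9 and numpy 2.4.6 in Python 3.11.15. The number of arrays limits precision. The brightest probe, by mean log2 signal over both dyes, stands for a gene. All members are named, from related lists at most 5 genes with adjusted p under 0.05 by size, and from lists of other cells the first 2 at most. The members and lists were chosen with earlier results of these data known, so no list was tested. Alternatives were other statistics, filters, ratios, weights, slides, probes and leaving out each mouse.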

Additional observations from a re-analysis of the deposited data

Results flagged for a closer look

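Among the 35 tested members, the brightest probe of 4 had 1 mouse set apart from the other 7, with a gap to its nearest neighbor, as a share of the whole range, past Dixon's critical value for 8 arrays. For independent normal values, chance sets about 1 gene in 20 apart in this way. The share of all tested genes set apart on these arrays was not taken. Cd68 was at -1.12 in replicate 8, a gap of 0.549 of the range, and Fcgr3 was at -1.67 in the same mouse, a gap of 0.585. Tyrobp was at -1.76 in replicate 5, a gap of 0.566, and Clec4n at -1.39 in replicate 7, a gap of 0.587. All 4 values were low and on slide 2, where the grid of replicates 5 and 7 was not rated good. Replicate 8 has the fewest spots well above background in red (21.6%) and the lowest array weight (0.573). Without that mouse Fcgr3 had a mean of 0.46 and Cd68 of 0.22, and without replicate 5 Tyrobp had a mean of 0.57 (adjusted p = 0.0447, limma), but without replicate 8, its highest value, 0.12 (adjusted p = 0.83). Without replicate 7 Clec4n was at -0.00605.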

How the results depend on the processing

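The 0 member probes called higher became 11 with median-centered signals (21.3% of all probes), 2 with the ratio of processed signals (Itgax and Itgam, beside 12.3% of all probes), 1 at a fold of 1.5 (C1qb, 1.07%), 1 at an adjusted p of 0.05 with 2-fold (Itgax, 0.562%), and 0 to 1 when each mouse was left out (Itgax without replicate 2, 0.194%). The 0 called lower became 1 with median-centered signals (4.53% of all probes) and at a fold of 1.5 (2.87%; both Tlr2), and 1 with processed signals (2.46%) and at an adjusted p of 0.05 with 2-fold (2.71%; both the weaker Trem2 probe), of 53 member probes tested. The 5 higher at an adjusted p of 0.05 became 20 with median-centered signals (29.8% of all probes), 3 with normexp and loess (3.58%), 11 with processed signals (21.3%), 7 on slide 1 alone (7.42%), 0 on slide 2 alone (0.808%), and 3 to 5 with each mouse left out (3 without replicate 3, 4 or 6, beside 4.18%, 4.15% and 4.97%). The 5 lower became 0 where red had to be well above background in 4 arrays (16.5% of all probes), 3 with median-centered signals (17.2%), 1 with normexp and loess (8.19%), 2 with only arrays of a good grid (8.16%), 2 on slide 1 (12.15%) and 0 on slide 2 (0.863%). Above 0 were 27 of 33 members tested on slide 1 alone (40.7% of all genes) and 15 of 29 on slide 2 alone (37.1%). The splits by slide and grid were chosen after seeing the data, and hold 4 or 5 arrays. The cause of these differences was not tested.

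Signs that turned, as log2 means: with median-centered signals C1qc -0.0534, Fcgr2b -0.13, Clec7a -0.15, Tyrobp -0.17, Ncf4 -0.19, Lyzs -0.23, Mrc1 -0.26, Laptm5 0.23, Ncf1 0.57, Tlr4 0.84 and Clec4d 1.17. With normexp and loess C1qc was at -0.0056, Itgam at -0.0091, Mrc1 at -0.0118, Lyzs at -0.0429, Cd14 at 0.0288, Ncf1 at 0.0358, Cd163 at 0.0658 and Laptm5 at 0.0817. With array weights Emr1 was at 0.11, and as medians over mice Cd163 was at 0.0113 and Laptm5 at 0.069. By the second probe Itgam was at -0.017, Fcer1g at -0.0407, Fcgr2b at -0.14, Lyzs at -0.16, Fcgr1 at -0.18, Fcgr3 at -0.27, Msr1 at -0.57, Csf1r at -0.67, Itgax at -0.78 and Laptm5 at 0.15, and by the third Fcgr2b at -0.36 and Csf1r at -0.52. Leaving out mice gave -0.16 to 0.0905 for Emr1, -0.0267 to 0.22 for Cd68, -0.015 to 0.13 for Lyzs, -0.0167 to 0.30 for Mrc1, -0.28 to 0.018 for Laptm5, -0.0533 to 0.33 for Ncf4 and -0.16 to 0.37 for Csf2rb2. Without the 2 farthest mice r was 0.361 for C1qa with C1qb and -0.442 for Clec4d with Clec4e, and Itgam with Itgax had no value. No paired analysis was possible because the 8 mice are 1 group.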
